A study of Mus musculus with 8 samples.

Results

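The genes described here mark granulocytes, mast cells and lymphocytes in the newborn mouse lung. The set lists 37 genes by symbol in 5 groups: 11 of neutrophils, 10 of mast cells and basophils, 4 of B cells, 8 of T cells and 4 of natural killer (NK) cells. Of these, 35 were measured by 71 array features among 20842 named genes in all, while Ighm, the immunoglobulin M heavy chain, and Lck, the kinase of the T cell receptor, had no feature under their symbols and were not analysed here. The array annotation named 34 of the 35 directly, and Mcemp1 was listed under an older clone name and found through its transcript accession. The rule names genes by cell type and uses no measured value.

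The arrays compare 2 groups of mouse pups of the C57Bl/6J strain, both kept in a chamber in 20% oxygen from postnatal day 0 to day 3. In one, labelled Fgf10+/- (TG in the sample titles), the genotype is heterozygous for Fgf10, the gene of fibroblast growth factor 10, and how the allele was made is not given in the labels. The other is wild type. Each group had 4 lungs, which the submitters call independent, and total RNA of the lung was hybridised to 1-colour (Cy3) arrays. Litter, sex and whether a sample pooled animals are not given in the labels, so p-values measure the spread between these samples. Values are given as quantile-normalized log2 signals, so 1 unit is a doubling, and the median of the 62976 features was 3.47 on each array. A gene is called near the floor where both group means lay below 4.47, which is 1 unit above that median. Levels are not compared between genes, because different probes differ in brightness.

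Fgf10, a growth factor of the lung mesenchyme and the gene named in the genotype, had log2 signals of 7.55, 7.96, 7.96 and 8.33 in the lungs labelled Fgf10+/-, against 7.49, 7.81, 6.89 and 7.64 in wild-type lungs. The signal was thus not lower in the lungs labelled Fgf10+/-, and the groups overlapped (difference 0.49, SE 0.24, two-sided exact permutation p = 0.0857 over 70 assignments). The difference was 0.30 to 0.62 with 1 array left out, lowest without wild-type replicate 3, and 0.31 when its 10 features were averaged. The position of its features relative to the altered allele is not stated in the labels. The genotype names used below are therefore those of the labels, which this signal did not bear out. Array pairs correlated between 0.977 and 0.986 over all named genes. Wild-type replicate 4 stood apart in tissue content. Its skeletal muscle genes (16 genes) averaged 3.19 above their 8-array means, against at most -0.26 in the other arrays, and its fat genes (12 genes) averaged 1.22 above, against at most 0.14. All 11 lung marker genes, among them Sftpc, Ager, Cdh5 and Nkx2-1, lay above the floor. Ager (-0.55) and Sftpa1 (-0.67) had the smallest p of that list. Neither passed, but in limma without dim genes their adjusted p was 0.0214 for Ager and 0.0300 for Sftpa1.

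Neutrophils are short-lived blood granulocytes that are packed with antimicrobial proteins during a fixed sequence of maturation in the bone marrow. Primary granule genes such as Mpo and Elane are transcribed early, secondary granule genes such as Camp, Ltf and Ngp later, and S100a8 and S100a9 are abundant in the mature cell. Mast cells settle in tissues, where they store proteases and histamine and depend on the receptor KIT, whereas basophils circulate and are known to populate the lung around birth. B, T and NK cells are lymphocytes, and the newborn lung holds few of them compared with the adult. In RNA of a whole organ, fewer cells of a type and less RNA per cell cannot be told apart.

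Of the 11 neutrophil members, 6 varied together across the lungs, and their promoters are shown here because these genes spread widely between lungs of the same group. Another, Csf3r, is shown as the neutrophil member that varied least. These windows run from 250 bases before to 50 after the annotated start (RefSeq, GRCm38.p6), 5′ to 3′ on the strand of the gene. Capitals mark matches to TTNNGNAA or its reverse complement TTNCNNAA, a loose form of the site bound by C/EBP factors, which drive granule genes in neutrophil precursors.
S100a8 (chr3:90668821-90669120, plus strand): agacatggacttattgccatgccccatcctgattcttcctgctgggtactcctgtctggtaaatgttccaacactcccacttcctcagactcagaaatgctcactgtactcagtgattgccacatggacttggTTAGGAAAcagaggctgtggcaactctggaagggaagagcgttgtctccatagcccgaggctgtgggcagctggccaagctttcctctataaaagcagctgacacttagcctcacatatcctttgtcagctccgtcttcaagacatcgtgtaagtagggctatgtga
S100a9 (chr3:90695672-90695971, minus strand): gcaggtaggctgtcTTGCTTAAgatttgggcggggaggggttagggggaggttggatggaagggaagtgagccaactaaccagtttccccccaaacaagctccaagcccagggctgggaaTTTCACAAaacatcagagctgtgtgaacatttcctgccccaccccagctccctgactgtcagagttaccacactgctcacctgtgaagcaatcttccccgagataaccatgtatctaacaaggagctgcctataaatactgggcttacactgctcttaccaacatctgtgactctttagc
Ngp (chr9:110419558-110419857, plus strand): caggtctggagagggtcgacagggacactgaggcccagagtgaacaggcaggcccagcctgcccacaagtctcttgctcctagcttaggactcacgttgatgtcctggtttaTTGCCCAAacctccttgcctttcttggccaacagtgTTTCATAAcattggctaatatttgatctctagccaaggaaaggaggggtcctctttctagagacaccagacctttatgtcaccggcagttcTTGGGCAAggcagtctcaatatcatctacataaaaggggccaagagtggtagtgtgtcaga
Camp (chr9:109849407-109849706, minus strand): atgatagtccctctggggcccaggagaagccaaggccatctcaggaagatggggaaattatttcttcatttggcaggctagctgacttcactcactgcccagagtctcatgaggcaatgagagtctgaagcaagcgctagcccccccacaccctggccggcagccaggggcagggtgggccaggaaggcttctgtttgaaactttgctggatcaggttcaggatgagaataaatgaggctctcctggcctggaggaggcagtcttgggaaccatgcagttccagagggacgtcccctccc
Ltf (chr9:111019042-111019341, plus strand): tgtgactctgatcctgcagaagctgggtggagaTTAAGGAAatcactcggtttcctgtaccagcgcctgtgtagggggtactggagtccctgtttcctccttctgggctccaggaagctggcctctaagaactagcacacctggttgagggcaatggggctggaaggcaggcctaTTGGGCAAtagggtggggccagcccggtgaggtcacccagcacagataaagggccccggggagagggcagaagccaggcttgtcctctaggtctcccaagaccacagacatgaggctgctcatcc
Retnlg (chr16:48872358-48872657, plus strand): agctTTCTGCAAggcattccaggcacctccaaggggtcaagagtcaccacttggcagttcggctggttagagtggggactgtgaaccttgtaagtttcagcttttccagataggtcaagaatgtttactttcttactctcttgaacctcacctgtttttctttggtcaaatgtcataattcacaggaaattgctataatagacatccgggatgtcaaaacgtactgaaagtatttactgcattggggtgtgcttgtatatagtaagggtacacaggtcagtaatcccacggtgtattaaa
Csf3r (chr4:126024409-126024708, plus strand): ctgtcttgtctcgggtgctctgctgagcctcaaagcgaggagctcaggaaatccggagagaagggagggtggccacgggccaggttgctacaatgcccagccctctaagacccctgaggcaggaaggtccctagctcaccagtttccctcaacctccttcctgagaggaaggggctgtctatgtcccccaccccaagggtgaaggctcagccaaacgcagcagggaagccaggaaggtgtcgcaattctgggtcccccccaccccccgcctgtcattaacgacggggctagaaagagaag
Ngp held 3 matches, S100a9 and Ltf 2 each, S100a8 and Retnlg 1 each, and Camp and Csf3r none. A match was thus present in 5 of these 6 genes, which were picked after their values were seen, and in 40.7% of 32851 promoters of that length. Among the 5 other neutrophil members 0 held a match. Mpo and Cxcr2, which like most of the 6 were highest in replicate 1 of the lungs labelled Fgf10+/- and lowest in wild-type replicate 4, held none, so the count over these 8 genes was 5. Over all 32 promoters found for the members, it was 9 (28.1%), a smaller share than in all promoters. A second motif, GAGGAA, is the core of the site of PU.1, a factor of all myeloid cells. On either strand it occurred in 2 of the 6, in 4 of the 8, in 17 of the 32 (53.1%) and in 28.3% of all promoters, with no base shared between the motifs in any member window. These matches describe letters in a window and are not measured sites. Promoters were found for 29 of the 37 listed members. The coordinates place S100a8 beside S100a9 on chromosome 3, and Camp, Ngp and Ltf on chromosome 9.

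Across the genotype contrast, the members did not separate the groups. None of the 35 passed an adjusted p of 0.05 in limma, a linear model fitted over all 20842 genes with Benjamini-Hochberg adjustment, and 0% of all genes did. Leaving out the dimmer genes called 288 genes, and a variance trend with robust settings called 414, with 0 members among them in either case. At an unadjusted p under 0.05 there were 3 members, Tpsb2 with a higher mean and Mcemp1 and Cd2 with lower means in the lungs labelled Fgf10+/-, or 8.57% of the members beside 11.0% of all genes (4.74% higher and 6.29% lower). The groups did not overlap for 1 member, Tpsb2, or 2.86% of the members beside 7.39% of all genes (2.99% higher and 4.40% lower). The median log2 difference of the members was 0.06, beside -0.00 for all genes, with 21 higher and 14 lower means. By cell type the medians were 0.175 for neutrophils, 0.01 for mast cells and basophils, 0.25 for B cells, -0.23 for T cells and 0.00 for NK cells. Leaving out 1 array at a time gave -0.26 to 0.53 for neutrophils and -0.12 to 0.04 for mast cells and basophils. For NK cells it gave -0.31 to 0.21. The sign of these medians rests on single lungs. For B cells the range was 0.03 to 0.46 and for T cells -0.29 to -0.08, so the sign was kept while the size moved. Array weights in limma gave -0.15 for neutrophils, and averaging the features of a gene gave 0.07 for B cells.

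**Figure D1:**
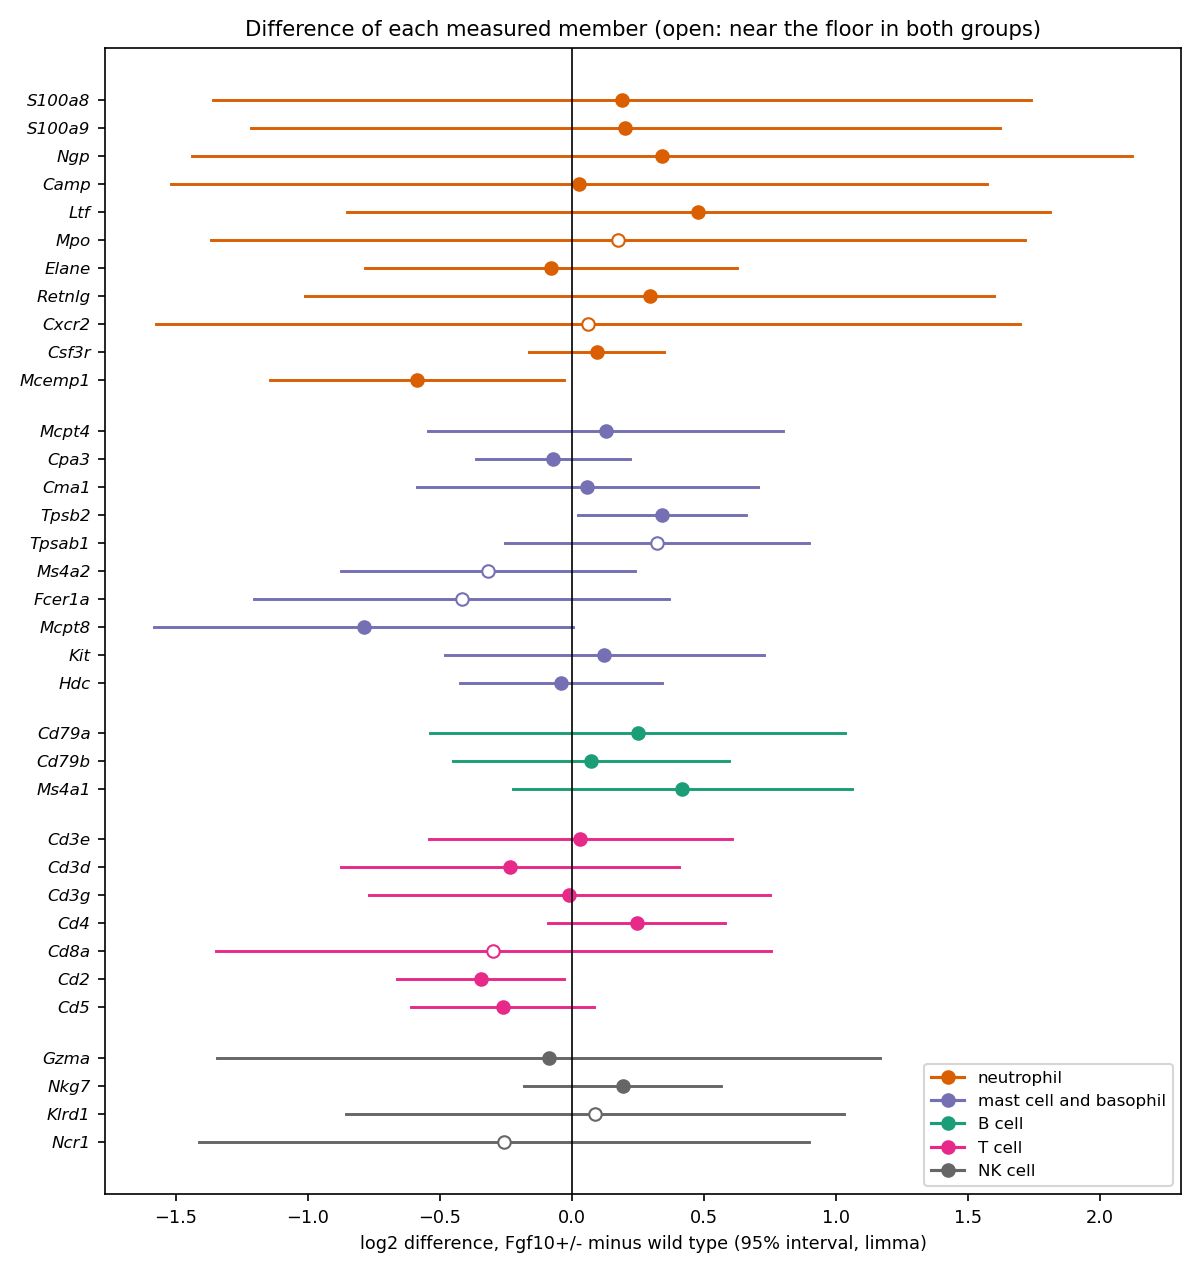
Log2 difference (Fgf10+/- minus wild type, x axis) of each of the 35 measured members, with limma's 95% interval as a line; open circles mark genes near the floor in both groups. Only the intervals of Mcemp1, Tpsb2 and Cd2 leave out 0, and those of 8 neutrophil genes are among the widest.

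For 8 of the 11 neutrophil members, the spread between lungs of the same group was at or above the 95th percentile of all genes, and no difference between the groups passed the test. S100a8 and S100a9 encode the 2 chains of calprotectin, the zinc- and calcium-binding protein that fills the neutrophil cytosol. S100a8 had log2 signals of 12.98, 11.00, 11.83 and 10.28 in the lungs labelled Fgf10+/- (replicates 1 to 4), against 12.34, 11.08, 11.90 and 10.00 in wild-type lungs. Within the lungs labelled Fgf10+/- the highest was 6.5 times the lowest on the linear scale, and within wild-type lungs 5.07 times. The group difference was 0.19 (SE 0.67, 95% interval -1.36 to 1.74; limma adjusted p = 0.949). S100a9 ran the same way, at 14.35, 12.35, 13.30 and 11.84 in the lungs labelled Fgf10+/-, against 13.63, 12.56, 13.23 and 11.61 in wild-type lungs. In both genes replicate 1 was highest and replicate 4 lowest in each group, and the groups overlapped almost fully (S100a9 difference 0.20, adjusted p = 0.939).

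Secondary granule genes followed the same lungs. Camp, which encodes the antimicrobial peptide cathelicidin, had log2 signals of 8.90, 7.33, 8.74 and 6.79 in the lungs labelled Fgf10+/-, against 8.92, 7.70, 8.64 and 6.39 in wild-type lungs, and its means differed by 0.03. Ltf, lactoferrin, which binds iron, stood at 8.32, 7.58, 8.24 and 6.73 in the lungs labelled Fgf10+/-, against 8.09, 6.73, 8.21 and 5.92 in wild-type lungs. Ngp encodes a cystatin-like granule protein and was at 6.60, 5.07, 6.37 and 4.69 in the lungs labelled Fgf10+/-, against 6.38, 5.38, 6.42 and 3.19 in wild-type lungs. Replicates 1 and 3 of both groups were the higher ones for all 3 genes, and wild-type replicate 4 the lowest. Retnlg, a resistin-like secreted protein of neutrophils, had 9.28, 7.46, 8.42 and 6.96 in the lungs labelled Fgf10+/-, against 8.54, 7.67, 8.07 and 6.66 in wild-type lungs. None of these differed between the genotypes beyond that spread (Ltf 0.48, Ngp 0.34 and Retnlg 0.29; adjusted p of 0.817, 0.914 and 0.894 in limma). With 1 array left out the Ltf difference ran from 0.04, without wild-type replicate 4, to 0.81.

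For these 6 genes together, chosen after their values were seen, the mean deviation from each gene's 8-array mean was 1.22, -0.38, 0.64 and -0.96 in the lungs labelled Fgf10+/-, against 0.80, -0.33, 0.57 and -1.55 in wild-type lungs. All 6 were lowest in wild-type replicate 4, and 5 of the 6 were highest in replicate 1 of the lungs labelled Fgf10+/-. Wild-type replicate 4 is the array with the muscle and fat genes, whose part in its low values was not tested. Replicate 4 of the lungs labelled Fgf10+/- was also low, at -0.96, with a muscle deviation of -0.57. Without wild-type replicate 4 the S100a8 difference was -0.26 in place of 0.19, with the sign turned, and adjusted p = 0.909. Genes of red cells did not follow the same order: the deviation of 10 erythroid genes was -1.01, 0.16, 1.27 and -0.43 in the lungs labelled Fgf10+/-, against 0.20, -0.78, 0.21 and 0.38 in wild-type lungs. A list of 16 general leukocyte genes, among them Ptprc, Coro1a and Itgb2, was also highest in replicate 1 and lowest in replicate 4 of each group, with a smaller range, at 0.29, -0.03, 0.11 and -0.30 in the lungs labelled Fgf10+/-, against 0.25, 0.04, 0.01 and -0.36 in wild-type lungs. So were the lists of 17 macrophage and monocyte genes and of 21 other neutrophil genes. The 17 ran from 0.37 to -0.62 in the lungs labelled Fgf10+/- and from 0.20 to -0.15 in wild-type lungs. The 21 ran from 0.35 to -0.43 in the lungs labelled Fgf10+/- and from 0.54 to -0.47 in wild-type lungs. None of the 16 general leukocyte genes passed the test. The smallest p there belonged to Itgb2 (log2 difference 0.16) and Itgal (log2 difference 0.16).

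**Figure D2:**
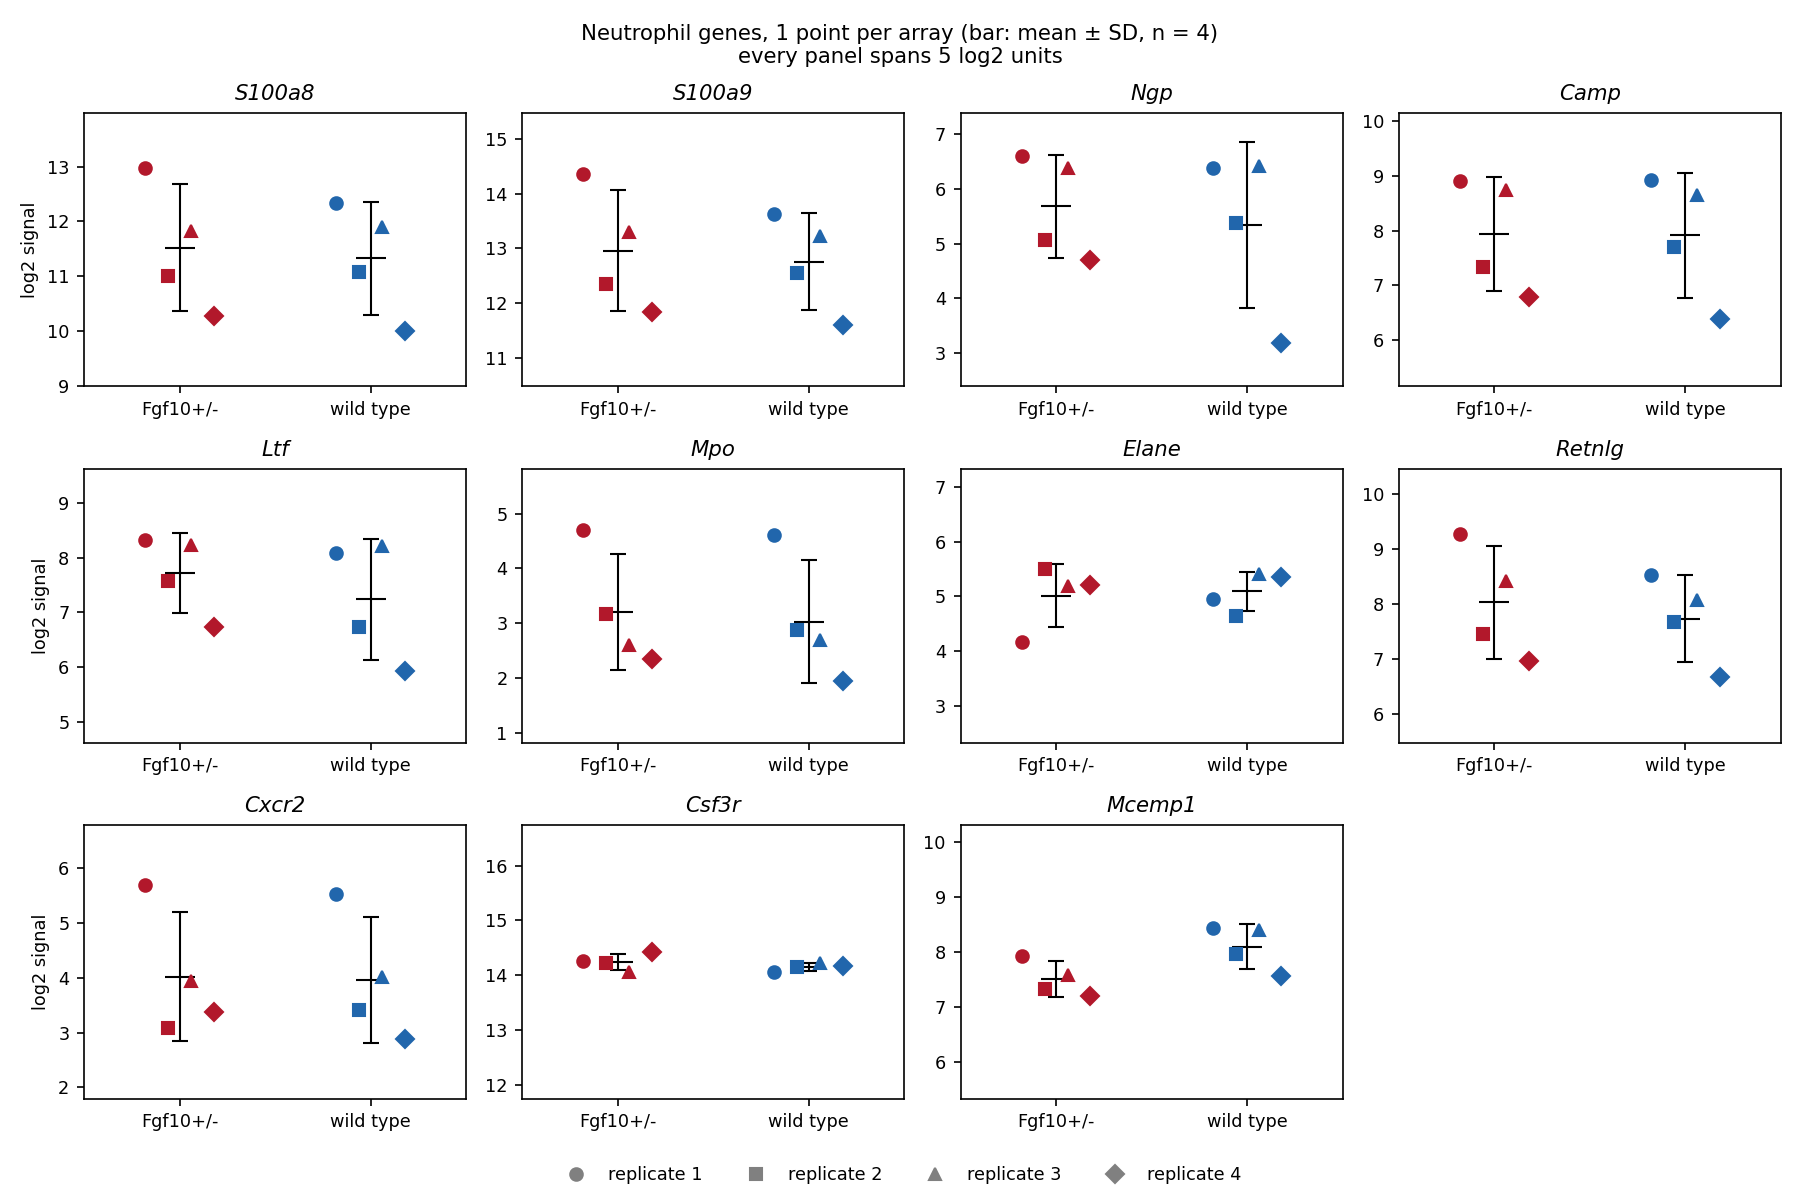
Log2 signal (y axis) of the 11 neutrophil members in each of the 4 lungs labelled Fgf10+/- (red) and the 4 wild-type lungs (blue), with the mean and SD in black; marker shape gives the replicate number. S100a8, S100a9, Ngp, Camp, Ltf and Retnlg spread over 1.59 to 3.23 log2 units within a group while the group means lie within 0.48 of each other, and Csf3r hardly varies.

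The primary granule genes and the receptors did not all follow. Mpo, myeloperoxidase, was near the floor, at 4.70, 3.16, 2.60 and 2.35 in the lungs labelled Fgf10+/-, against 4.60, 2.88, 2.69 and 1.94 in wild-type lungs, so that only replicate 1 of each group lay above 4.47. Cxcr2, the chemokine receptor that draws neutrophils into tissue, was also near the floor by both group means. It had the same shape, with 5.70, 3.08, 3.94 and 3.38 in the lungs labelled Fgf10+/-, against 5.53, 3.42, 4.01 and 2.88 in wild-type lungs. Replicate 1 of both groups stood well above every other array. Elane, neutrophil elastase, did the opposite in 1 lung: it was lowest, at 4.17, in replicate 1 of the lungs labelled Fgf10+/-, where the 6 genes above were high, and its means differed by -0.08. Csf3r, the receptor for granulocyte colony-stimulating factor, was flat, at 14.26, 14.22, 14.06 and 14.43 in the lungs labelled Fgf10+/-, against 14.06, 14.15, 14.22 and 14.16 in wild-type lungs. The groups overlapped, and the difference was 0.10 (adjusted p = 0.811). Its within-group SD of 0.12 was at percentile 12.2 of all genes.

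**Figure D3:**
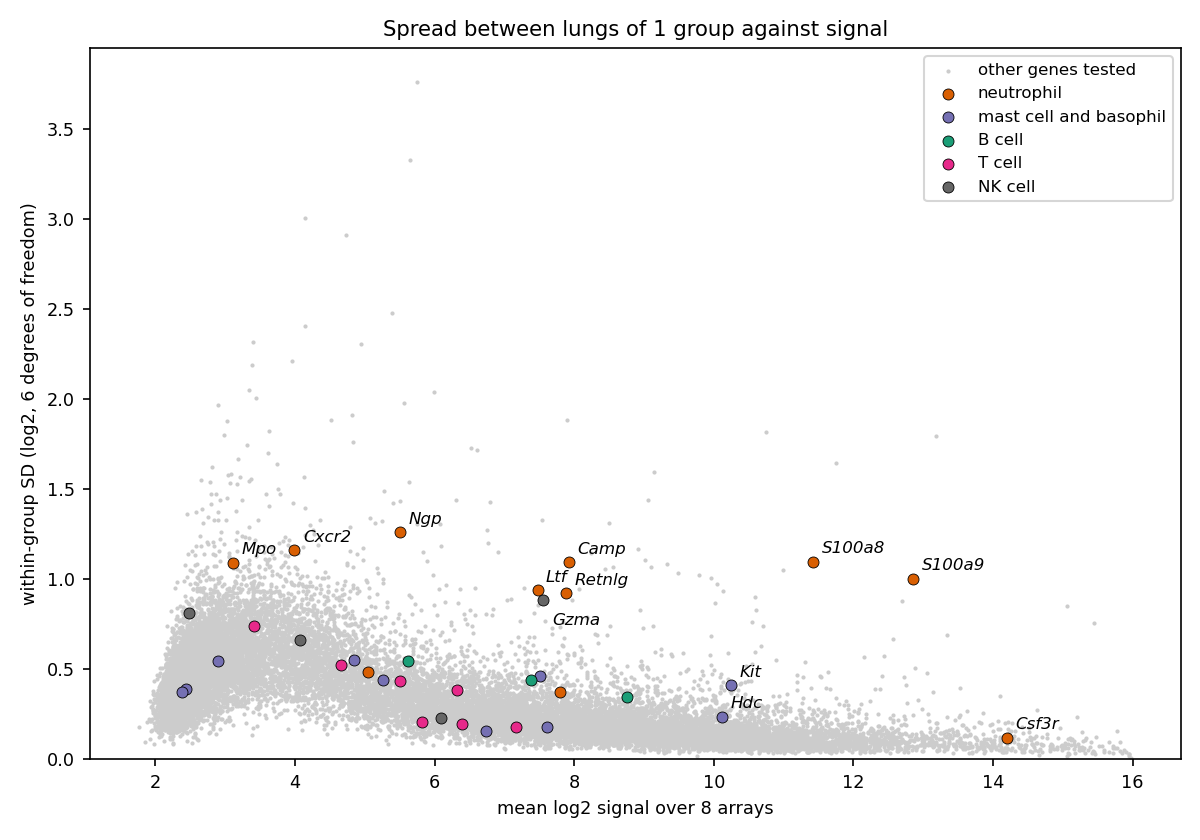
Within-group SD (y axis, log2) against mean log2 signal (x axis) for all named genes (grey) and the members (coloured by cell type). S100a8 (SD 1.10) and S100a9 (SD 1.00) lie near the top of the cloud, at percentiles 99.3 and 98.9 of all genes, and Csf3r (SD 0.12) lies low in it.

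Mcemp1, a membrane protein first described in mast cells, was the neutrophil-group member with the smallest p. It had log2 signals of 7.93, 7.32, 7.59 and 7.20 in the lungs labelled Fgf10+/-, against 8.44, 7.97, 8.41 and 7.57 in wild-type lungs. Both groups held their highest value in replicate 1 and their lowest in replicate 4, and within each replicate number the lung labelled Fgf10+/- had the lower value. The groups overlapped, since wild-type replicate 4 lay below 2 lungs labelled Fgf10+/-. The difference was -0.58 (SE 0.24, 95% interval -1.14 to -0.03; limma adjusted p = 0.433). Of 21 other neutrophil genes, which include granule, receptor and oxidase genes, 0 passed the test, 13 had a higher and 8 a lower mean, and their median difference was 0.06. The formyl peptide receptor genes Fpr1 (-0.56, adjusted p = 0.476) and Fpr2 (-0.55, adjusted p = 0.642) had the smallest p there.

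Mast cell and basophil genes had a median within-group SD of 0.40, against 1.00 for the neutrophil genes. Of the 10, 5 had a higher and 5 a lower mean, and 3, all parts of the IgE receptor or a tryptase, were near the floor. Cpa3, the carboxypeptidase of mast cell granules, had 6.52, 6.58, 6.85 and 6.84 in the lungs labelled Fgf10+/-, against 6.75, 6.91, 6.59 and 6.83 in wild-type lungs, and its means differed by -0.07 (95% interval -0.36 to 0.22). The chymase gene Mcpt4 stood at 7.00, 7.31, 8.45 and 7.54 in the lungs labelled Fgf10+/-, against 7.21, 7.42, 7.51 and 7.64 in wild-type lungs. Only replicate 3 of the lungs labelled Fgf10+/- departed, by being high. Cma1, another chymase, ranged from 4.83 to 5.80 in the lungs labelled Fgf10+/- and from 4.77 to 5.89 in wild-type lungs. Their differences were 0.13 and 0.06.

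Tpsb2, the mast cell tryptase known as MCP-6, was the member whose groups did not overlap. It had log2 signals of 7.56, 7.97, 8.01 and 7.58 in the lungs labelled Fgf10+/-, against 7.44, 7.41, 7.54 and 7.37 in wild-type lungs. The highest wild-type value, in replicate 3, lay just below the lowest of the lungs labelled Fgf10+/-, in replicate 1. The difference was 0.34 (SE 0.14, 95% interval 0.02 to 0.66; limma adjusted p = 0.420). A second, dimmer Tpsb2 feature went the other way, with a difference of -0.36, and the average over both was -0.01. Tpsab1, which encodes the tryptase MCP-7, is annotated by RefSeq as a transcribed pseudogene. It was near the floor, at 2.59 ± 0.34 in the lungs labelled Fgf10+/- and 2.27 ± 0.43 in wild-type lungs (SD, n = 4 each).

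Mcpt8, a protease known mainly from basophils, had the largest difference of any member. Its log2 signals were 5.12, 4.09, 4.50 and 4.13 in the lungs labelled Fgf10+/-, against 5.23, 5.54, 5.81 and 4.40 in wild-type lungs. The 3 highest were wild type, but wild-type replicate 4 lay among the lungs labelled Fgf10+/-. The difference was -0.79 (SE 0.34, 95% interval -1.58 to 0.00; limma adjusted p = 0.456). Without wild-type replicate 4 it was -1.07 (adjusted p = 0.197). Fcer1a and Ms4a2 encode the alpha and beta chains of the high-affinity IgE receptor of mast cells and basophils and were near the floor, with differences of -0.42 and -0.32. Hdc, which makes histamine, was at 10.10 ± 0.24 in the lungs labelled Fgf10+/- and 10.14 ± 0.23 in wild-type lungs (SD, n = 4 each). Kit, which is also expressed outside mast cells, for example in endothelium, was at 10.31 ± 0.52 in the lungs labelled Fgf10+/- and 10.18 ± 0.26 in wild-type lungs (SD, n = 4 each), and both its features gave a difference near 0.12.

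Among 19 other mast cell and basophil genes, 0 passed, with 7 higher and 12 lower means and a median of -0.15. The smallest p belonged to Prss34, a protease of mast cells and basophils, at 4.78, 4.30, 4.87 and 4.42 in the lungs labelled Fgf10+/-, against 4.07, 3.80, 4.20 and 4.05 in wild-type lungs. Its groups did not overlap, and the difference was 0.56 (adjusted p = 0.261) at signals close to the floor. Next was Rab27b, a GTPase of granule release (-0.31, adjusted p = 0.420). Of 7 eosinophil genes 0 passed and 5 were near the floor, among them Epx, the eosinophil peroxidase. Il5ra, near the floor, differed by 1.67 (adjusted p = 0.331) and Siglecf, which alveolar macrophages also express, by -0.64 (adjusted p = 0.407).

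**Figure D4:**
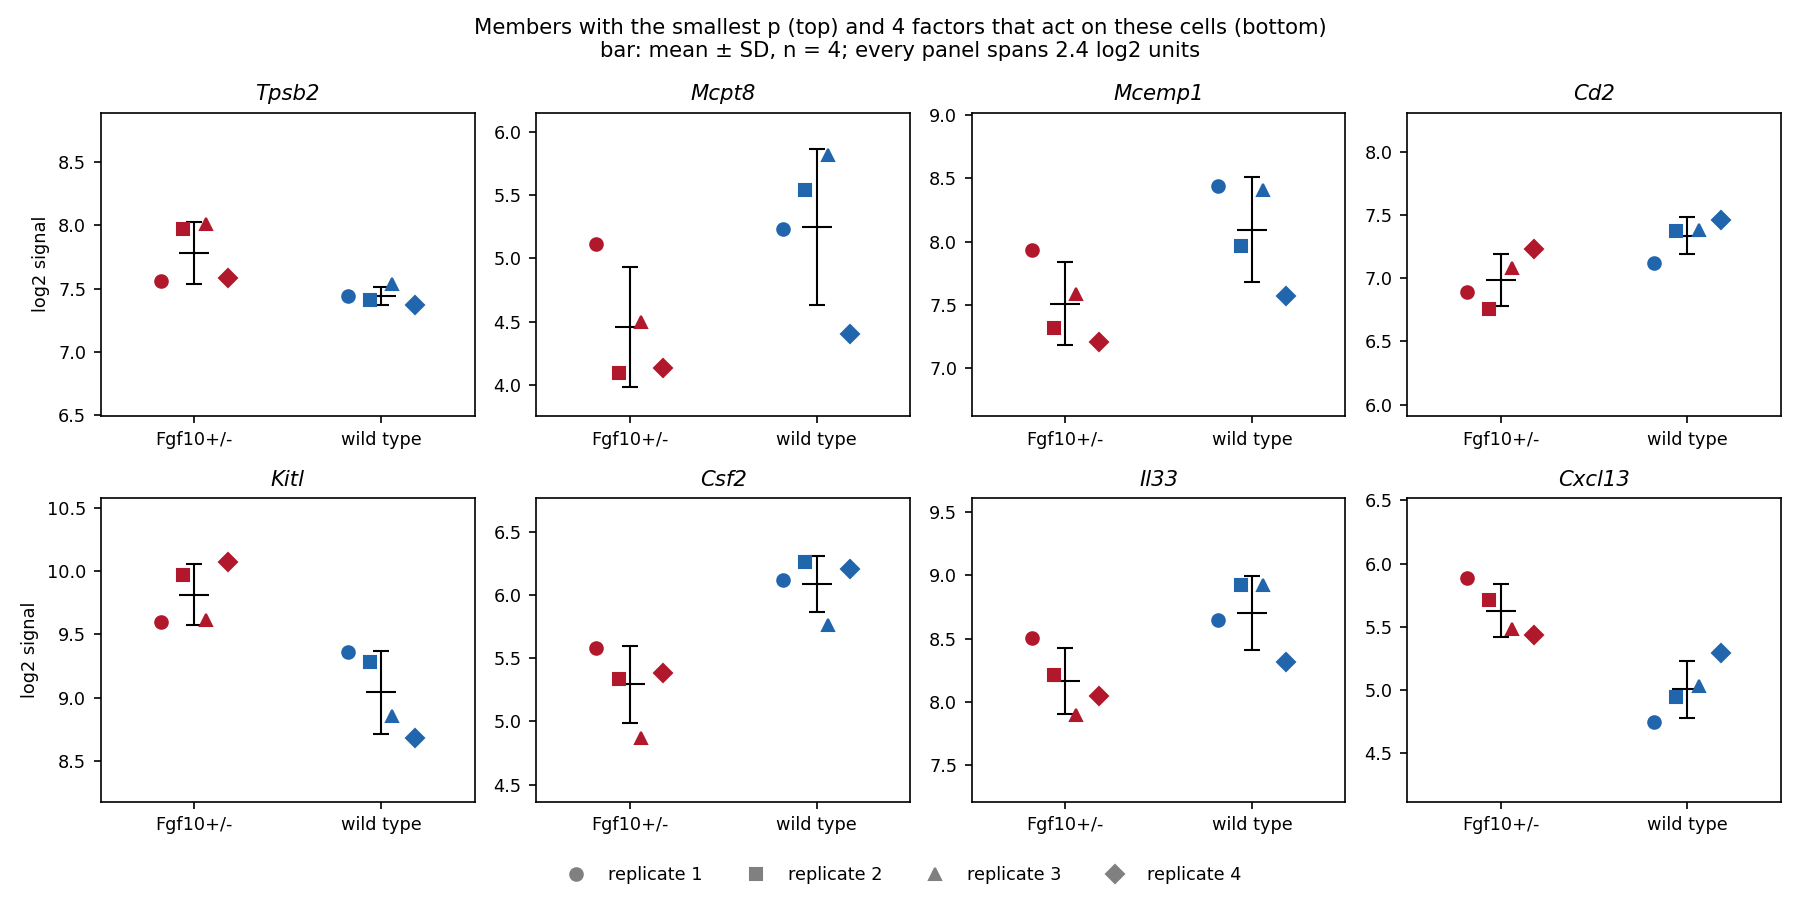
Log2 signal (y axis) of Tpsb2, Mcpt8, Mcemp1 and Cd2, the members with the smallest p, and of 4 factors that act on these cells, in the lungs labelled Fgf10+/- (red) and wild-type lungs (blue), with mean and SD in black. Groups are parted for Tpsb2, Kitl, Csf2 and Cxcl13 and overlap for the other 4 genes.

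Among 18 measured factors that recruit or sustain these cells none passed, and the groups did not overlap for 3 of them (16.7%, beside 7.39% of all genes). Kitl encodes stem cell factor, the ligand of KIT on mast cells. It had 9.60, 9.97, 9.62 and 10.07 in the lungs labelled Fgf10+/-, against 9.36, 9.28, 8.85 and 8.68 in wild-type lungs. All 4 lungs labelled Fgf10+/- were higher, and the difference was 0.77 (SE 0.20, 95% interval 0.32 to 1.22; limma adjusted p = 0.219). With a variance trend and robust settings in limma the adjusted p of Kitl was 0.0175. Csf2 encodes GM-CSF, which acts on macrophages, granulocytes and basophils and in the lung comes from alveolar epithelium among other cells. It stood at 5.58, 5.34, 4.87 and 5.38 in the lungs labelled Fgf10+/-, against 6.12, 6.26, 5.76 and 6.20 in wild-type lungs. Here all 4 lungs labelled Fgf10+/- were lower, and the difference was -0.79 (SE 0.18, 95% interval -1.22 to -0.37; limma adjusted p = 0.190). Outside the naming rule and chosen after the values were seen, Il33, an alarmin of alveolar type 2 cells that acts on mast cells, basophils and innate lymphocytes, differed by -0.54 (adjusted p = 0.346), and Cxcl13, the B cell chemokine, by 0.62 (adjusted p = 0.220). Of these factors, 9 had a higher and 9 a lower mean, and the group means of the neutrophil attractants Cxcl1, Cxcl2, Cxcl3, Cxcl5 and Csf3 were near the floor. Cxcl5 lay above it in single lungs, with 6.31, 4.22, 2.92 and 3.61 in the lungs labelled Fgf10+/-, against 5.26, 2.96, 4.26 and 3.62 in wild-type lungs. It was highest in replicate 1 of both groups, and lowest of all in replicate 3 of the lungs labelled Fgf10+/-. The other attractants were highest elsewhere. Cxcl1 and Csf3 were highest in wild-type replicate 2, Cxcl2 in wild-type replicate 3 and Cxcl3 in replicate 3 of the lungs labelled Fgf10+/-. Of the 11 lung marker genes, 9 had a lower mean in the lungs labelled Fgf10+/-, 5 of them without overlap (45.5%, beside 4.40% of all genes that were lower without overlap), and their mean deviation ranged from -0.17 to -0.06 in the lungs labelled Fgf10+/- and from 0.04 to 0.18 in wild-type lungs. Their part in the Csf2 and Il33 values was not tested.

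All 3 measured B cell genes had a higher mean in the lungs labelled Fgf10+/-, and none passed. Ms4a1, which encodes CD20, had 6.95, 7.92, 7.69 and 7.82 in the lungs labelled Fgf10+/-, against 6.77, 7.57, 6.84 and 7.54 in wild-type lungs. Replicates 2 and 4 were high in both groups, replicate 1 of both groups and wild-type replicate 3 were low, and the groups overlapped. The difference was 0.42 (SE 0.28, 95% interval -0.22 to 1.06; limma adjusted p = 0.643). Cd79a and Cd79b encode the signalling chains of the B cell receptor. Cd79a had 5.12, 6.16, 5.54 and 6.16 in the lungs labelled Fgf10+/-, against 5.44, 5.88, 4.70 and 5.95 in wild-type lungs, and Cd79b had 8.25, 8.93, 8.94 and 9.07 in the lungs labelled Fgf10+/-, against 8.34, 9.001, 8.58 and 8.97 in wild-type lungs. Their differences were 0.25 and 0.07. A second, dimmer Cd79a feature gave -0.14, and the average over both was 0.05. The mean deviation of the 3 genes was -0.48, 0.41, 0.14 and 0.43 in the lungs labelled Fgf10+/-, against -0.41, 0.23, -0.55 and 0.23 in wild-type lungs. In both groups replicate 1 was low and replicates 2 and 4 were high, and wild-type replicate 3 was the lowest of all.

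Of 16 other B cell and plasma cell genes, 13 had a higher and 3 a lower mean, with a median difference of 0.35, and 0 passed. Fcer2a, the low-affinity IgE receptor CD23, was at 3.58, 3.61, 4.54 and 3.81 in the lungs labelled Fgf10+/-, against 2.56, 2.97, 3.05 and 3.16 in wild-type lungs, and its groups did not overlap (difference 0.95, adjusted p = 0.215). Pax5, the B cell identity factor, had a difference of 1.08 (adjusted p = 0.232). Both were near the floor. Jchain, the joining chain of plasma cells, was also near the floor, at 2.69 ± 0.78 in the lungs labelled Fgf10+/- and 2.39 ± 0.49 in wild-type lungs (SD, n = 4 each). The deviation of this list was -0.16, 0.32, 0.26 and 0.28 in the lungs labelled Fgf10+/-, against -0.32, -0.11, -0.34 and 0.06 in wild-type lungs.

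None of the 7 measured T cell genes passed, and 2 had a higher and 5 a lower mean. Cd3e, Cd3d and Cd3g encode chains of the CD3 complex of the T cell receptor. Cd3e had 5.99, 6.39, 6.71 and 6.25 in the lungs labelled Fgf10+/-, against 6.24, 5.81, 6.25 and 6.91 in wild-type lungs. Cd3d had 5.59, 4.94, 5.90 and 5.13 in the lungs labelled Fgf10+/-, against 5.82, 5.84, 4.97 and 5.86 in wild-type lungs, and Cd3g lay between 3.93 and 5.27 over all 8 arrays. Their differences of 0.03, -0.23 and -0.01 differ in sign, and that of Cd3g turned positive, at 0.01, with median centring. Cd4, the coreceptor of helper T cells, which some myeloid cells also carry, had 6.55, 6.33, 6.83 and 6.35 in the lungs labelled Fgf10+/-, against 6.06, 6.27, 6.40 and 6.35 in wild-type lungs (difference 0.25, adjusted p = 0.601). Of its 11 features, 10 were near the floor. All 11 features of Cd8a, the coreceptor of cytotoxic T cells, were near the floor, and its brightest had 3.26 ± 0.96 in the lungs labelled Fgf10+/- and 3.56 ± 0.41 in wild-type lungs (SD, n = 4 each).

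Cd2, an adhesion receptor of T and NK cells, was the T cell member with the smallest p. It had 6.89, 6.76, 7.08 and 7.23 in the lungs labelled Fgf10+/-, against 7.12, 7.38, 7.38 and 7.46 in wild-type lungs. The 3 lowest values were in the lungs labelled Fgf10+/- and the 3 highest in wild-type lungs, with an overlap between. The difference was -0.34 (SE 0.14, 95% interval -0.66 to -0.03; limma adjusted p = 0.413), and all 11 Cd2 features had a lower mean in the lungs labelled Fgf10+/-, from -0.96 to -0.14, with 7 of them near the floor. Features of 1 gene read the same RNAs and are not separate measurements. Cd5, an inhibitory receptor of T cells, was at 5.64, 5.36, 5.78 and 5.99 in the lungs labelled Fgf10+/-, against 5.84, 6.04, 5.87 and 6.06 in wild-type lungs (difference -0.26, adjusted p = 0.586). Of 20 other T cell genes 0 passed, with 13 higher and 7 lower means and a median of 0.09. The smallest p belonged to Il2rb, the interleukin 2 receptor beta chain, at 4.86, 4.14, 4.28 and 3.18 in the lungs labelled Fgf10+/-, against 2.24, 2.48, 2.91 and 2.92 in wild-type lungs, which was near the floor (difference 1.47, adjusted p = 0.191), and to Gata3 (0.67, adjusted p = 0.455).

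Thymic tissue, which lies beside the lung, was checked with 10 thymocyte genes. Of these, 8 were near the floor, among them the recombination genes Rag1 and Rag2 and the polymerase gene Dntt, whose means were 2.97, 2.93 and 3.13 in the lungs labelled Fgf10+/- and 3.07, 2.89 and 3.15 in wild-type lungs. The list deviation ranged from -0.05 to 0.10 in the lungs labelled Fgf10+/- and from -0.05 to 0.05 in wild-type lungs. Themis (-0.25) and Ccr9 (-0.40) had the smallest p and did not pass. Ptcra, the pre-T cell receptor alpha chain, stood apart in 1 lung, with 5.27, 2.16, 2.66 and 2.73 in the lungs labelled Fgf10+/-, against 2.98, 2.70, 2.42 and 2.52 in wild-type lungs. Its high value was in replicate 1 of the lungs labelled Fgf10+/-, and the list mean does not show it. The T cell members were highest in replicate 3 of the lungs labelled Fgf10+/- for 4 of 7 genes and in wild-type replicate 4 for the other 3.

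Of the 4 NK cell genes, 2 lay above the floor. Gzma, the granule protease granzyme A, had 8.47, 7.22, 7.57 and 6.81 in the lungs labelled Fgf10+/- (replicates 1 to 4), against 8.05, 7.87, 8.40 and 6.09 in wild-type lungs. It resembled the neutrophil genes in its spread, with a within-group SD of 0.88, replicate 1 of the lungs labelled Fgf10+/- at the top and wild-type replicate 4 at the bottom, and the means differed by -0.09 (adjusted p = 0.972). Nkg7, a granule membrane protein of cytotoxic cells, was at 6.25, 6.11, 6.52 and 5.86 in the lungs labelled Fgf10+/-, against 5.84, 6.17, 6.09 and 5.87 in wild-type lungs (difference 0.19). Klrd1, which encodes CD94, and Ncr1, which encodes the NK receptor NKp46, were near the floor. Ncr1 had 3.36, 1.82, 1.70 and 2.53 in the lungs labelled Fgf10+/-, against 2.07, 2.99, 1.75 and 3.63 in wild-type lungs, with high and low lungs in both groups. The differences were 0.09 for Klrd1 and -0.26 for Ncr1. Of 14 other NK and cytotoxic genes 12 were near the floor and 0 passed. Klrk1 (-0.40, near the floor) and Ccl5 (0.54) had the smallest p, and the list median was -0.08.

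**Figure D5:**
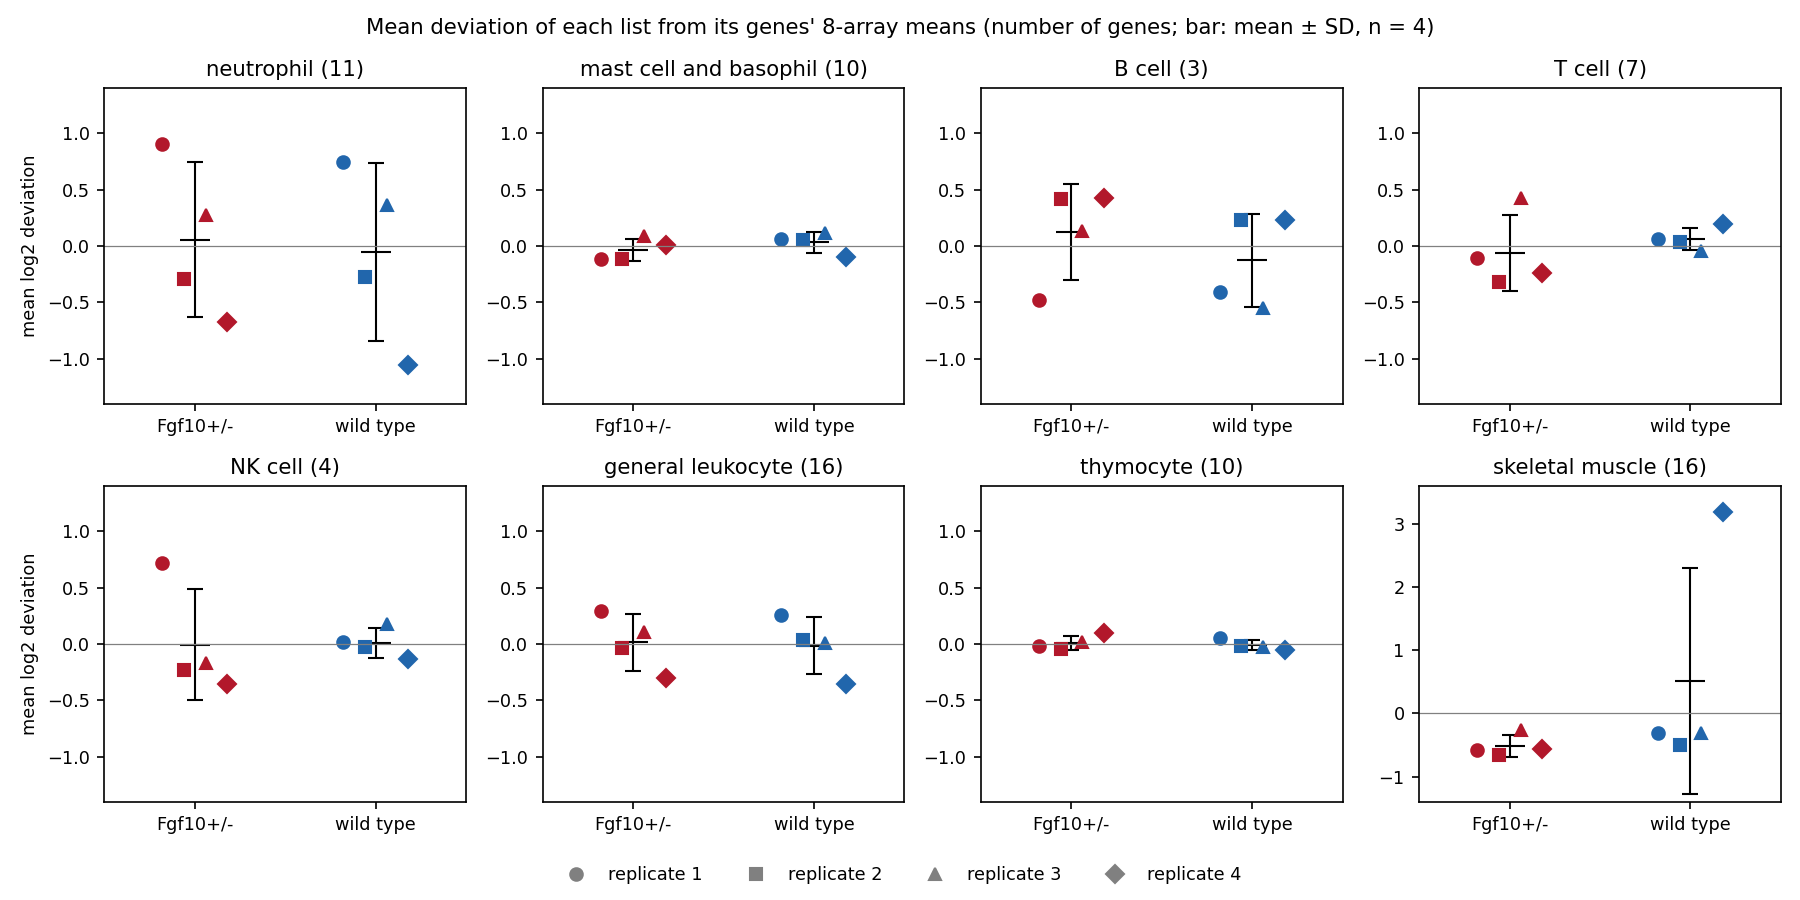
Mean log2 deviation (y axis) of each list from the 8-array means of its genes, in each lung labelled Fgf10+/- (red) and each wild-type lung (blue), with mean and SD in black; the number of genes stands in each title, and the skeletal muscle panel has a wider axis. The neutrophil list runs from 0.90 to -0.67 in the lungs labelled Fgf10+/- and from 0.75 to -1.05 in wild-type lungs, and muscle genes stand at 3.19 in wild-type replicate 4 alone.

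Other lists gave no call in the fit over all genes with limma's usual settings. Of 17 macrophage and monocyte genes 0 passed, with a median of 0.03. Ear2, a ribonuclease of alveolar macrophages, differed by -0.89 (adjusted p = 0.164) without overlap. Its adjusted p was 0.0295 without dim genes and 0.0309 with a variance trend and robust settings in limma. Siglecf was next. Of 9 progenitor genes 0 passed, and the transcription factor gene Myb differed by -0.64 (adjusted p = 0.191), again without overlap and with an adjusted p of 0.0408 in limma without dim genes, with Gata1 at -0.48. Among red cell genes Rhd (-0.44) and Hemgn (0.11) had the smallest p. In the muscle and fat lists Atp2a1 (-0.74), Eno3 (-0.58), Cidec (-1.60) and Plin5 (-0.76) did, and wild-type replicate 4 stands apart for both lists. With 1 array left out each of these genes kept a lower mean. The ranges were -0.89 to -0.60 for Atp2a1 and -0.68 to -0.39 for Eno3. For Cidec they were -1.90 to -1.39 and for Plin5 -0.83 to -0.63. With a variance trend and robust settings the adjusted p of Cidec in limma was 0.0134.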

How the data were processed

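In all, 8 lung samples were measured on 1-colour arrays, 4 in each group. The authors deposited log2 values, which the file shows to be quantile normalized (sorted values differ by at most 0.0042 between arrays), and limma is named per the submitters' processing notes. The sources used here name no background correction. Of 62976 features, 31465 had a gene symbol, and 29050 of these matched RefSeq (GRCm38.p6). Features with a blank on any array (120) were left out, and each of 20842 genes was read from its feature with the highest mean. Limma 3.58.1 in R 4.3.3 (lmFit and eBayes, group only) gave differences, and p-values were adjusted by Benjamini-Hochberg over all genes. The script was tested on simulated data.

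The members and lists were chosen with earlier results of these data known. All 35 measured members are named, with values in every array for those whose groups do not overlap or with p under 0.05 and at least the 2 with the smallest p of each cell type. Of other lists the 2 with the smallest p are named. Some genes outside that rule are named as examples of their list, among them Epx, Jchain, Rag1, Rag2 and Dntt. The 6 neutrophil genes described together, the promoters shown, the motifs, and Il33, Cxcl13, Cxcl5 and Ptcra were chosen after values were seen. Alternatives were other scalings, feature averages, no dim genes, other limma settings, a replicate block and fewer arrays. The values carry no counts, so the number of arrays limits precision.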

Additional observations from a re-analysis of the deposited data

Results flagged for a closer look

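In 3 of 80 sets of 4 values (3.75%), 1 lung lay far from the others of its group. Chance gives about 1 in 20. Cd79b was low, at 8.25, in replicate 1 of the lungs labelled Fgf10+/-, against 8.93 to 9.07 in the other lungs of that group. Cd8a was high, at 4.68, in replicate 3 of the lungs labelled Fgf10+/-, against 2.66 to 3.00, in a gene near the floor. Cd3d was low, at 4.975, in wild-type replicate 3, against 5.82 to 5.86.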

How the results depend on the processing

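No member passed in any setting run, and the lowest adjusted p of a member was 0.173. Of 650 member values under alternatives, 580 kept their direction, 70 turned, and 14 of the 35 members never turned. The cause was not tested. Genes called were 288 without dim genes (fewer genes tested), 414 with a variance trend and robust settings, 3 with array weights, and 0 to 1 with 1 array left out (1 without wild-type replicate 4). Members with an unadjusted p under 0.05 numbered 0 to 4 with 1 array left out. The mast cell median was 0.12 without dim genes, -0.10 without wild-type replicate 4 and Fgf10+/- replicate 3, and -0.12 to 0.04 with 1 array left out.

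Differences that turned with array weights were S100a8 -0.24, S100a9 -0.20, Ngp -0.14, Camp -0.41, Mpo -0.15, Elane 0.076, Retnlg -0.084, Cxcr2 -0.37 and Cma1 -0.037. Without wild-type replicate 4 and Fgf10+/- replicate 3 they were S100a8 -0.36, S100a9 -0.30, Ngp -0.61, Camp -0.75, Ltf -0.13, Retnlg -0.19, Cxcr2 -0.27, Mcpt4 -0.10, Cma1 -0.16 and Ncr1 0.30. Leaving out both arrays numbered 4 was added after seeing the data. It called 0 genes, had 4 members under an unadjusted p of 0.05, and turned Ngp to -0.046, Camp to -0.099, Cxcr2 to -0.081, Cd3g to 0.33 and Ncr1 to 0.025. Averaging features turned Tpsb2 to -0.01 and Itgal to -0.009, and Cd3g turned to 0.014 with median centring and to 0.013 with further quantile normalization.

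With 1 array left out, genes that turned ranged as follows: Camp -0.48 to 0.41, Cd3e -0.13 to 0.23, Cd3g -0.21 to 0.23, Cd79a -0.014 to 0.46, Cd79b -0.054 to 0.26, Cma1 -0.11 to 0.28, Cxcr2 -0.50 to 0.59, Elane -0.24 to 0.20, Gzma -0.59 to 0.18, Hdc -0.14 to 0.043, Kit -0.03 to 0.36, Klrd1 -0.23 to 0.30, Mcpt4 -0.16 to 0.32, Mpo -0.33 to 0.70, Ncr1 -0.59 to 0.083, Ngp -0.38 to 0.70, Retnlg -0.12 to 0.65, S100a8 -0.30 to 0.60, S100a9 -0.26 to 0.57 and Ccr9 -0.69 to 0.004. Of 592 values of 32 other named genes, 9 passed only under an alternative and 2 turned.

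Replicate numbers were not taken to pair the lungs, which the submitters call independent. Over all genes, same-numbered deviations correlated at 0.113, 0.0226, 0.0178 and 0.0776, and differently numbered ones at -0.155 to 0.0695. These correlations do not settle the matter for single lists. For the mean of the 6 neutrophil genes described together, chosen after values were seen, the replicates fell in the same order in both groups. Single genes did not all do so. Ngp and Ltf were highest in replicate 3 of the wild-type lungs, but in replicate 1 of the lungs labelled Fgf10+/-. Whether the within-group spread holds a part shared by replicate number was not tested. With the replicate number as a block, 5 members had an unadjusted p under 0.05 and 0 were called.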
